A study of Mus musculus with 5 samples.

Results

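The immunity-related GTPases (IRG) and the guanylate-binding proteins (GBP) are interferon-inducible enzymes, and 10 of their genes were followed here in mouse liver. They are the IRG genes *Iigp1*, *Irgm1*, *Irgm2*, *Igtp*, *Tgtp1* and *Tgtp2* and the GBP genes *Gbp2*, *Gbp3*, *Gbp6* and *Gbp7*, chosen by symbol from the 23793 genes of the expression table, and all 10 were found. Liver RNA came from 2 control mice, Lifrfl/fl, and 3 knockout mice, Lifrfl/fl;Crealb/alb, which are the *Lifr* fl/fl;Alb-Cre mice of the study. All 5 mice were C57BL/6 animals of 12 weeks with both *Lifr* alleles floxed around an exon, and in the knockout mice Cre recombinase, driven by the albumin promoter of hepatocytes, deletes that exon. No group carried Cre without the floxed gene, so Cre and the loss of *Lifr* cannot be told apart. The comparison asks whether these GTPase genes had another level in livers whose hepatocytes lack the receptor of leukemia inhibitory factor.

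Both families bind and hydrolyze GTP and defend the inside of the cell. Interferon gamma, released by T cells and NK cells, turns these genes on in many cell types, hepatocytes and macrophages among them. The effector IRG proteins load onto the membrane around intracellular parasites such as *Toxoplasma* and break it, the regulatory IRGM proteins stay on the cell's own membranes and hold the effectors inactive there, and GBP proteins coat parasite vacuoles and bacteria and help inflammasomes to fire. Promoters of interferon-induced genes often hold a palindromic element called GAS, which answers to interferon gamma, and another called ISRE, to which IRF factors bind. In mice the effector gene *Iigp1* also has a promoter that is active in liver without interferon.

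The promoters of these genes are shown because GAS and ISRE elements are often found in promoters of interferon-induced genes. RefSeq promoter windows on GRCm38.p6, running from 250 bases before to 50 bases after the annotated start, matched 8 of the 10 genes, and *Iigp1* and *Gbp6* had no window in the table used. Each window was searched on both strands for the ISRE core GAAANNGAA and for the GAS letters TTCNNNGAA, and the 2 motifs were not seen to overlap in any window of these genes. The core of ISRE was found in 8 of 8 genes and in 9.76% of all 27025 genes with a window. GAS letters were found in 5 of 8 genes and in 9.55% of all genes, and both motifs together in 5 of 8 genes and in 1.42% of all genes. In each line below, capitals mark the matches, lower case marks the bases around them, and a match on the opposite strand is printed as it reads along the gene.
*Gbp7*: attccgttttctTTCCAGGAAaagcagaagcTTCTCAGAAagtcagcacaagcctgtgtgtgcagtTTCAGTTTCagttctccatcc
*Gbp3*: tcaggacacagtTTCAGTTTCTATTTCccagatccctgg
*Gbp2*: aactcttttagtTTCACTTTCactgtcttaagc
*Irgm1*: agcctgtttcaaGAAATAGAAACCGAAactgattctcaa
*Tgtp1*: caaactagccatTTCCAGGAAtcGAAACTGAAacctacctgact
*Tgtp2*: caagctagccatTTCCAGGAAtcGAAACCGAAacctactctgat
*Igtp*: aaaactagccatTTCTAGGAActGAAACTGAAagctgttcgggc
*Irgm2*: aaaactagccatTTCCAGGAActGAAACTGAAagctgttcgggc

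The GBP stretches lie on the plus strand at chr3:142530218-142530304 (*Gbp7*), chr3:142559988-142560026 (*Gbp3*) and chr3:142620593-142620625 (*Gbp2*). Those of *Igtp* and *Irgm2* lie on the plus strand at chr11:58199499-58199542 and chr11:58214890-58214933. The minus strand holds those of *Irgm1* at chr11:48871424-48871462, *Tgtp1* at chr11:48992303-48992346 and *Tgtp2* at chr11:49064262-49064305. *Tgtp1*, *Tgtp2*, *Igtp* and *Irgm2* share one layout, a GAS match followed after a gap by an ISRE core, which starts 77, 70, 34 and 64 bases before the annotated start, respectively. *Irgm1* and *Gbp3* each hold 2 overlapping ISRE cores and no GAS match in this window, *Gbp2* holds 1 ISRE core, and *Gbp7* holds 2 GAS matches and 1 ISRE core. *Gbp3* has a second annotated start downstream whose window holds neither motif. A match describes letters and does not show that a factor was bound in these livers.

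*Lifr*, the gene deleted in the knockout, stood at 132 and 151 FPKM in control livers and at 32.8, 44.3 and 54.8 FPKM in knockout livers. FPKM is a number of mapped fragments scaled for transcript length and for the size of the library. The difference was a log2 fold change of -1.71 (SE 0.19, adjusted p = 0.00447 from limma), and it missed the threshold of 0.05 where either control value was left out (adjusted p = 0.22 and 0.315) or where genes of low level were kept (adjusted p = 0.0623). Of the 23793 genes, 11687 averaged 0.5 FPKM or more and were tested. At an adjusted p under 0.05, 42 genes or 0.359% were higher in knockout livers and 24 genes or 0.205% were lower. The lower calls include *Serpina3k*, *C3* and *Apob*, abundant liver genes named after their values were seen, which the table lists at 0 in all 3 knockout livers and whose zeros may be failed estimates. None of the 10 GTPase genes was listed at 0 in any liver. The columns sort each gene by itself within a group, in text order (15586 of 15586 genes whose values differ), so no column is one mouse, and the values below run from low to high within a group. Whether the same mouse was high for several of the GTPase genes cannot be told. Without counts the depth of the libraries is unknown, and in whole liver fewer cells of a type and less RNA per cell cannot be told apart.

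All 10 GTPase genes passed the minimum level, each with a control mean above it, and all 10 had a log2 fold change above 0 in knockout livers, from 0.32 to 0.62 with a median of 0.47. Over all tested genes the median was 0.03, and 54.9% lay above 0. None of the 10 passed the adjusted threshold in either direction (limma, adjusted p from 0.326 to 0.808), against 0.359% of tested genes that were called higher and 0.205% that were called lower. At an unadjusted p under 0.05 in the same limma fit, 5 of 10 were higher and 0 were lower, where 6.08% and 3.56% of tested genes were. This count of 5 was 0 or 1 where a control value was left out, 3 and 1 without the middle and the highest knockout value, 10 without the lowest, and 3 with no filter on low genes. Leaving out a gene's lowest knockout value raises its knockout mean, and leaving out its highest lowers it. The counts of 10 and 1 therefore follow in part from which value was chosen, while all other genes lost a value drawn at random. In 6 of 10 genes every knockout value lay above every control value, as it did in 15.1% of tested genes. With the lowest knockout value set aside in every tested gene, a comparison chosen after the data were seen, this held for 10 of 10 GTPase genes and for 37.6% of tested genes. The summed level of the 10 genes was 178 FPKM over the control means and 249.5 FPKM over the knockout means. With 2 livers against 3 there are 10 arrangements of the labels, so an exact two-sided permutation test cannot give a p under 0.2, the value it gave for those 6 genes.

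**Figure D1:**
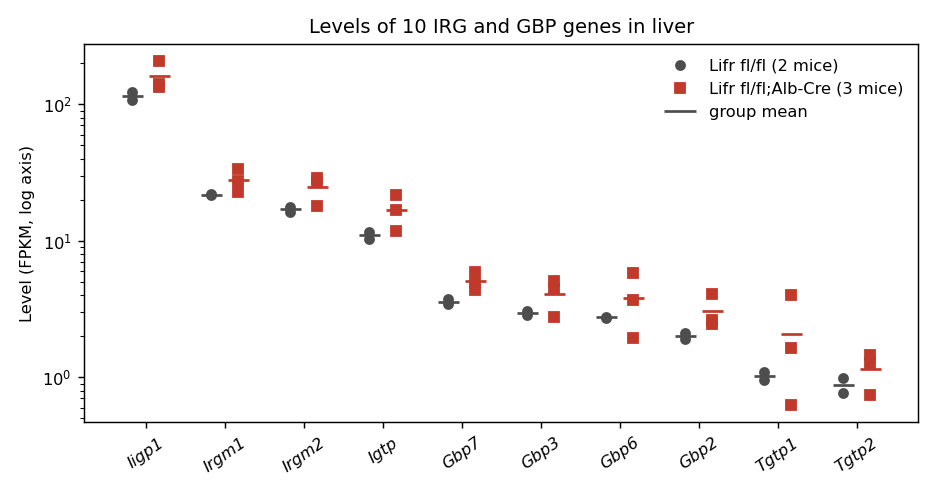
Level of each GTPase gene in FPKM on a log axis, ordered by control mean, with circles for the 2 control livers, squares for the 3 knockout livers and short lines for group means. All knockout values lie above both control values for *Iigp1*, *Irgm1*, *Irgm2*, *Igtp*, *Gbp2* and *Gbp7*, and the lowest knockout value lies below both control values for *Gbp3*, *Gbp6*, *Tgtp1* and *Tgtp2*.

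The regulatory genes are *Irgm1*, *Irgm2* and *Igtp*, whose product is also called Irgm3. *Irgm1* (XLOC_003454), on chromosome 11 from 48865245 to 48871420 in mm10, keeps effector IRG proteins off the cell's own membranes and takes part in autophagy. Its level was 21.5 and 21.9 FPKM in control livers and 22.8, 27.5 and 33.6 FPKM in knockout livers. The groups did not overlap, although the lowest knockout value stood close to the controls. The log2 fold change was 0.35 (95% interval -0.01 to 0.70, adjusted p = 0.532 from limma).

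*Irgm2* (XLOC_002651), from 58214977 to 58222783 on the same chromosome, encodes a regulator found at the Golgi that also limits caspase-11 inflammasome responses. It stood at 16.4 and 17.6 FPKM in control livers and at 17.9, 27.0 and 29.1 FPKM in knockout livers. One knockout liver was at the level of the controls and the other two were well above, with a log2 fold change of 0.51 (95% interval 0.07 to 0.94, adjusted p = 0.431 from limma). Without the lowest knockout value the log2 fold change was 0.72 and *Irgm2* passed the threshold (adjusted p = 0.0476 from limma), the one case in which any of the 10 genes did. That fit left out the value by its rank here and at random in genes outside the lists. It therefore favours *Irgm2* by construction and does not stand for one mouse left out.

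*Igtp* (XLOC_002650) ends 7.38 kb before *Irgm2* begins, at 58199556 to 58207592, and encodes a regulator of the endoplasmic reticulum and lipid droplets. Control livers held 10.3 and 11.7 FPKM, and knockout livers 11.8, 16.9 and 21.6 FPKM. The pattern was that of *Irgm2*, with a lowest knockout value next to the controls and 2 higher ones. The log2 fold change was 0.57 (95% interval 0.09 to 1.05, adjusted p = 0.426 from limma). Of the windows of 50 bases along the *Igtp* transcript, 12.3% were identical to a stretch of *Irgm2*.

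Among the effectors, *Iigp1* (XLOC_009735), which encodes Irga6, a loader of the parasite vacuole, was the most abundant of the 10 by a wide margin. Its level was 107 and 124 FPKM in control livers and 134, 141 and 207 FPKM in knockout livers. All 3 knockout values exceeded both control values, and a single one stood far above the rest. The log2 fold change was 0.45 (95% interval 0.04 to 0.87, adjusted p = 0.482 from limma). *Iigp1* alone made up 64.8% of the summed control level of the 10 genes and 64.5% of the summed knockout level. Without it, the other genes summed to 62.9 FPKM in control livers and 88.7 FPKM in knockout livers, so the sum was higher without *Iigp1* too. The mean of *Iigp1* itself was 116 FPKM in control and 161 FPKM in knockout livers, the larger part of the difference in the sum. Only 4.79% of tested genes had a higher mean level per length over the 5 livers.

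*Tgtp1* (XLOC_003458) and *Tgtp2* (XLOC_003460) encode Irgb6, an effector that arrives early at the vacuole, and lie 64.9 kb apart on chromosome 11, at 48985329 to 48992246 and 49057196 to 49064212. Their longest transcripts were 99.8% identical over 2810 aligned bases, and 89.4% of the windows of 50 bases along *Tgtp1* occurred in *Tgtp2*. The authors kept uniquely mapped reads, so the levels of both genes and their split are uncertain. *Tgtp1* stood at 0.959 and 1.09 FPKM in control livers and at 0.624, 1.63 and 4.02 FPKM in knockout livers. Its knockout values ran from below to far above the controls, with a log2 fold change of 0.62 and a 95% interval from -0.61 to 1.85 (adjusted p = 0.755 from limma). Without the highest knockout value its log2 fold change was -0.01.

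*Tgtp2* stood at 0.771 and 0.980 FPKM in control livers and at 0.736, 1.27 and 1.46 FPKM in knockout livers. Here too the lowest knockout value was under both controls and the other two were above them, and the log2 fold change was 0.32 (95% interval -0.31 to 0.95, adjusted p = 0.749 from limma). Although the pair share nearly all of their sequence, the highest knockout value was 6.45 times the lowest for *Tgtp1* and 1.99 times the lowest for *Tgtp2*.

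The GBP genes among the 10 were all low, under 6 FPKM in every liver. *Gbp7* (XLOC_013366), on chromosome 3 from 142530336 to 142550151, takes part in the oxidative defence of macrophages. Its level was 3.42 and 3.75 FPKM in control livers and 4.37, 4.89 and 5.94 FPKM in knockout livers. The groups were apart, the knockout values were the least spread of the 10 genes (highest 1.36 times the lowest), and *Gbp7* had the smallest p of the 10 (log2 fold change 0.48, 95% interval 0.13 to 0.83, adjusted p = 0.326 from limma). Even so, its p ranked only at place 444 among all tested genes.

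*Gbp2* (XLOC_013369), from 142620663 to 142638008 on chromosome 3, encodes a GBP that coats bacteria and the *Toxoplasma* vacuole. Control livers held 1.90 and 2.11 FPKM, and knockout livers 2.44, 2.64 and 4.07 FPKM. No value of one group fell within the other, and 1 knockout value stood apart from the other two. The log2 fold change was 0.55 (95% interval 0.07 to 1.03, adjusted p = 0.454 from limma).

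Next to *Gbp7* and *Gbp2*, *Gbp3* (XLOC_013367), from 142560016 to 142573213, belongs to the same gene cluster. It was measured at 2.84 and 3.06 FPKM in control livers and at 2.78, 4.45 and 5.09 FPKM in knockout livers. The groups overlapped because of the lowest knockout value. The log2 fold change was 0.42 (95% interval -0.09 to 0.93, adjusted p = 0.604 from limma).

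*Gbp6* (XLOC_016421) belongs to the other GBP cluster, on chromosome 5, from 105270702 to 105295871. Its level was 2.74 and 2.79 FPKM in control livers and 1.93, 3.67 and 5.82 FPKM in knockout livers. The controls nearly coincided while the knockout values lay on both sides of them, and the log2 fold change was 0.32 (95% interval -0.46 to 1.09, adjusted p = 0.808 from limma). Without the highest knockout value it was -0.05. The *Gbp6* transcript was 98.5% identical to *Gbp10* over 2587 aligned bases, and 62.3% of its windows of 50 bases occurred there, so the reads of this pair cannot be split with certainty. *Gbp10*, named for this reason, had the same layout of values, 2.32 and 3.05 FPKM in control livers and 1.75, 4.83 and 7.15 FPKM in knockout livers (log2 fold change 0.55, adjusted p = 0.735 from limma).

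**Figure D2:**
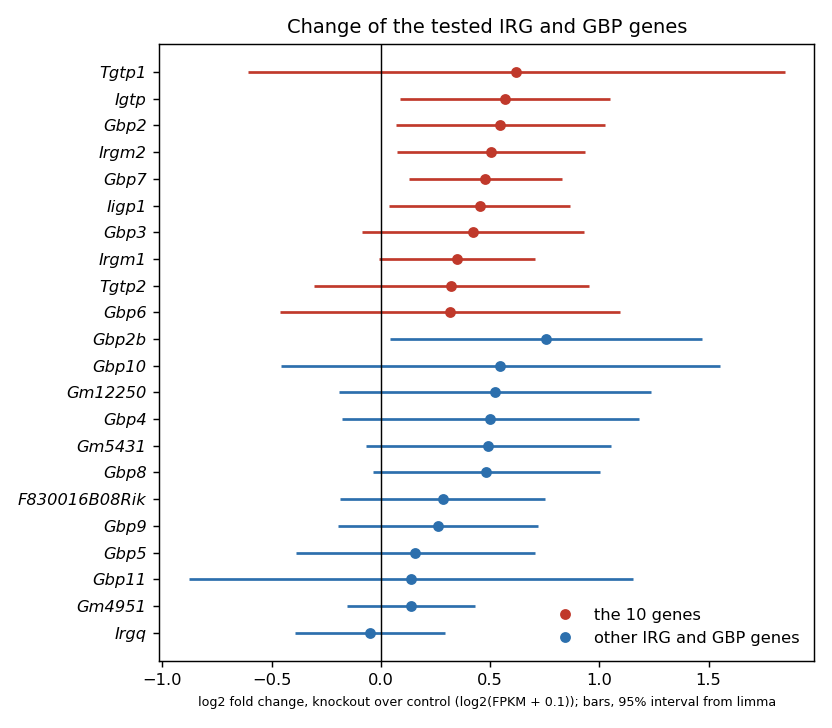
Log2 fold change of knockout over control for the 10 GTPase genes (upper group) and the 12 other tested IRG and GBP genes (lower group), with bars for the 95% interval from limma and a vertical line at 0. All points but that of *Irgq* lie above 0, and 6 intervals do not reach 0: those of *Igtp*, *Gbp2*, *Irgm2*, *Gbp7*, *Iigp1* and *Gbp2b*.

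Spread among the knockout livers was the other common feature of these genes. The SD on the log2 scale was larger in the knockout than in the control group for 10 of 10 genes, as it was for 60.2% of tested genes. Its median over the 10 genes was 0.41 in knockout and 0.09 in control livers, beside 0.15 and 0.12 over all tested genes. Among the 4592 tested genes with a mean under 5 FPKM, the highest knockout value was at the median 1.30 times the lowest, and at the 90th percentile 1.81 times. Of the GTPase genes under 5 FPKM, *Tgtp1* (6.45 times), *Gbp6* (3.01), *Tgtp2* (1.99) and *Gbp3* (1.84) were above that percentile. *Gbp2* (1.67) and *Gbp7* (1.36) were below it. The reads of *Tgtp1* and *Gbp6* cannot be split with certainty from those of *Tgtp2* and *Gbp10*. With 2 control and 3 knockout values per gene an SD is known only roughly, and whether the spreads differ was not tested.

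**Figure D3:**
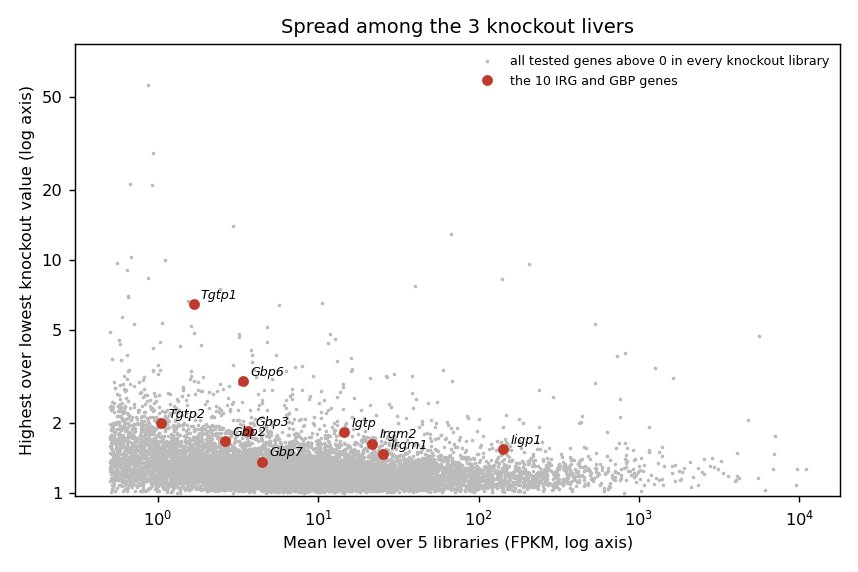
Highest over lowest knockout value of each tested gene, on a log axis, against its mean level over the 5 libraries in FPKM, on a log axis, with the 10 GTPase genes labelled. *Tgtp1* at 6.45 and *Gbp6* at 3.01 stand highest of the 10, and *Gbp7* at 1.36 is lowest.

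The order of levels per length in control livers ran from *Iigp1* through *Irgm1*, *Irgm2*, *Igtp*, *Gbp7*, *Gbp3*, *Gbp6*, *Gbp2* and *Tgtp1* down to *Tgtp2*. Across this order the mean level fell from *Iigp1* to *Tgtp2* by a factor of 132, and *Iigp1* stood 5.33 times above the next gene. In control livers 8 of the 9 neighbouring pairs had values that did not overlap, the exception being *Tgtp1* and *Tgtp2*. In knockout livers 2 of 9 did, *Iigp1* over *Irgm1* and *Igtp* over *Gbp7*, so much of the order among the regulators and among the GBP and *Tgtp* genes could not be told there. Genes further apart in the order could be, as every knockout value of *Irgm1* lay above those of *Igtp*, and every knockout value of *Gbp7* above those of *Gbp2*, *Tgtp1* and *Tgtp2*. The levels fell into 3 steps in both groups, *Iigp1*, then the regulators, then the rest.

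Of the other IRG and GBP genes, 12 were tested, 11 of which lay above 0 (median log2 fold change 0.38), and none passed the adjusted threshold. *Gbp2b*, the gene of mouse Gbp1, was the 1 of 12 with an unadjusted p under 0.05, a share near the 6.08% of all tested genes. It stood at 1.74 and 1.88 FPKM in control livers and at 1.78, 3.76 and 4.53 FPKM in knockout livers (log2 fold change 0.76, adjusted p = 0.495 from limma), with 1 knockout liver among the controls. The gene of highest level on this list, *Gm4951*, which resembles *Iigp1*, measured 45.0 and 54.1 FPKM in control livers and 50.9, 53.6 and 58.6 FPKM in knockout livers, so its groups overlapped (log2 fold change 0.14, adjusted p = 0.772 from limma).

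Upstream of these genes, 18 of the receptor, JAK-STAT and IRF genes were tested, and 15 were above 0 on the log2 scale (median fold change 0.12). None passed the adjusted threshold, and 4 were higher at an unadjusted p under 0.05, beside 6.08% of all tested genes. Every knockout value lay above every control value for 6 of 18, beside 15.1% of all tested genes. *Usp18*, which encodes a brake on type I interferon receptors and is itself induced by interferon, had the smallest p of this list, with 4.85 and 5.70 FPKM in control and 6.64, 8.38 and 8.80 FPKM in knockout livers (log2 fold change 0.57, adjusted p = 0.206 from limma). *Ifng*, the gene of interferon gamma itself, was listed at 0 in both control livers and at 0, 0.03 and 0.04 FPKM in knockout livers, under the minimum for a test. *Irf1*, which encodes a factor that drives many GBP genes, measured 16.9 and 17.3 FPKM in control livers and 12.4, 16.0 and 17.6 FPKM in knockout livers (log2 fold change -0.17, adjusted p = 0.76 from limma), with no value set apart from the controls on the high side; *Ifng* and *Irf1* were named after their values were seen.

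Other genes induced by interferon gamma lay above 0 in 13 of 15 cases (median log2 fold change 0.23), and 2 of them, *Parp14* and *Il18bp*, had an unadjusted p under 0.05 (all tested genes, 6.08%). *Parp14*, an ADP-ribosyltransferase, was at 7.19 and 8.005 FPKM in control and at 9.19, 10.1 and 11.6 FPKM in knockout livers (log2 fold change 0.43, adjusted p = 0.316 from limma). Genes induced mainly by type I interferon lay above 0 in 16 of 20 cases (median log2 fold change 0.18), beside 54.9% of all tested genes. Of these 20, 1 had an unadjusted p under 0.05, no more than the 6.08% of all tested genes. It was the RNA sensor gene *Ifih1* (log2 fold change 0.44, adjusted p = 0.339 from limma). Inflammasome and autophagy receptor genes, whose products act with GBP proteins, lay above 0 in 7 of 8 cases (median 0.25). Of these, 1 of 8 had an unadjusted p under 0.05, beside 6.08% of all tested genes. It was *Casp4*, the gene of caspase-11 (log2 fold change 0.60, adjusted p = 0.495 from limma). The ATG8 conjugation genes, whose products are needed to place IRG and GBP proteins on vacuoles, lay above 0 in 6 of 10 cases (median 0.04), with none with an unadjusted p under 0.05. Every knockout value lay above every control value for 3 of 15 interferon gamma genes and 7 of 20 type I interferon genes, beside 15.1% of all tested genes. The same held for 2 of 8 inflammasome and autophagy receptor genes and 0 of 10 ATG8 conjugation genes. None of the genes on these 4 lists passed the adjusted threshold.

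**Figure D4:**
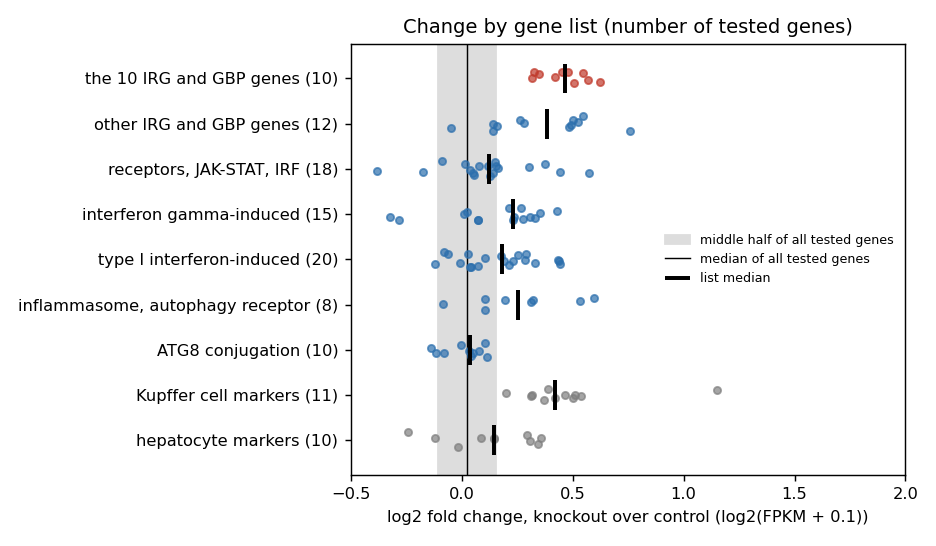
Log2 fold change of knockout over control for each tested gene (points) of the GTPases, of 6 pathway lists and of 2 marker lists, with a thick line for the list median, a thin line for the median of all tested genes and a grey band from their lower to their upper quartile. The 10 GTPase genes have a median of 0.47 and the Kupffer cell markers one of 0.42, and the ATG8 conjugation genes lie around the median of all genes, 0.03.

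Cells other than hepatocytes also express these GTPases, and the levels of markers of such types are given here. Kupffer cells are macrophages that live in liver sinusoids. Of their markers, 11 of 11 lay above 0 (median log2 fold change 0.42), beside 54.9% of all tested genes. In limma 6 of 11 were higher at an unadjusted p under 0.05, beside 6.08% of all tested genes, and none passed the adjusted threshold. Every knockout value lay above every control value for 8 of 11, beside 15.1% of all tested genes. Summing the lowest and then the highest value of each marker in a group, the list came to 282 and 319 FPKM in control livers and to 351 and 492 FPKM in knockout livers. The highest knockout value was from 1.17 times (*Clec4f*) to 1.62 times (*Timd4*) the lowest for every Kupffer cell marker except *Marco*. *Marco*, a scavenger receptor gene named after its values were seen, stood at 6.42 times. Over all tested genes the median of this ratio was 1.23 times. The neutrophil markers summed to between 2.30 and 3.83 FPKM in control and between 6.17 and 10.8 FPKM in knockout livers, but nearly all of this sum was that of the calprotectin genes *S100a8* and *S100a9*. Of these, *S100a9* was the 1 marker of any list past the adjusted threshold (log2 fold change 1.59, adjusted p = 0.0181 from limma), and *S100a8* was not past it (log2 fold change 1.46, adjusted p = 0.059 from limma). The granule genes *Mpo*, *Ngp*, *Camp* and *Elane* were at or near 0 and not tested, and the groups overlapped for *Retnlg* (log2 fold change 0.29, adjusted p = 0.817 from limma). T and NK cell markers, from cells that release interferon gamma, summed to 3.09 FPKM over the control means and 4.42 FPKM over the knockout means. Their lowest and highest values summed to 2.69 and 3.49 FPKM in control and to 2.57 and 6.53 FPKM in knockout livers. These bounds overlapped, but they are not the sums of single livers. Only 2 of these 12 markers reached the minimum for a test, with 1 above 0 and 1 below 0. Markers of sinusoidal endothelial cells lay below 0 in 6 of 8 cases (median log2 fold change -0.09). Stellate cell markers did so in 6 of 8 cases (median -0.26). At an unadjusted p under 0.05 in limma, 1 of 8 stellate cell markers was lower, beside 3.56% of all tested genes. The 2 tested B cell markers lay below 0, while 3 of 4 cholangiocyte markers and the 1 tested dendritic cell marker lay above 0. Hepatocyte markers were the most abundant of all marker lists, with 24076 FPKM over the control means and 24737 FPKM over the knockout means, and no marker of any list was at 0 in all 5 libraries. The part of these other cells in the higher GTPase levels was not tested.

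**Figure D5:**
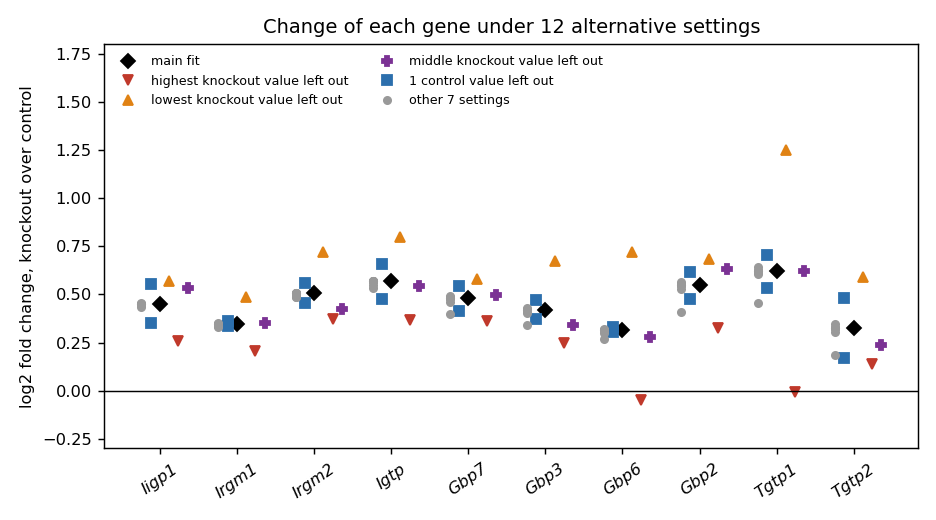
Log2 fold change of each GTPase gene, knockout over control, in the main comparison (diamonds), with 1 value left out (triangles, squares and crosses) and under 7 other settings (circles). Of 120 values outside the main comparison 118 lie above 0, the exceptions being *Tgtp1* at -0.01 and *Gbp6* at -0.05 without their highest knockout value.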

How the data were processed

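Liver RNA of 5 mice was sequenced by the authors as paired-end mRNA libraries. FastQC 0.11.5 served for read quality, TopHat2 2.1.1 for mapping to mm10 and SAMtools 1.5 for keeping unique alignments. The deposited values are FPKM, which the authors estimated with Cufflinks 2.2.1 on RefSeq genes, and they hold no counts or depth. The authors' fold, p-value and call columns, from Cuffdiff, were not used. Genes averaging 0.5 FPKM or more were compared on log2(FPKM + 0.1) with limma 3.58.1 in R 4.3.3 (lmFit, eBayes with a trend), adjusted by Benjamini-Hochberg over every tested gene at a threshold of 0.05, and the procedure was tested on simulated data. Fold changes on this scale understate those of low genes. Each p-value sets the difference between the groups against the spread between mice within a group. For that spread, limma borrows from all tested genes. The 10 genes, the lists and the tests were chosen with earlier results of these data known. Named are the 10 genes, *Lifr*, and from each pathway list genes past the threshold, of highest level or of smallest p, not all of which are reported. Coordinates and promoters come from RefSeq on GRCm38.p6 (mm10), and transcripts from GENCODE. The list genes *Ifi47*, *9930111J21Rik1*, *Gm4070* and *Ly6g* are not analysed here, *Gvin1* was left out because it has more than 1 row, and *Adgre1* was matched as *Emr1*. Alternatives were other pseudocounts, filters, thresholds and variance models, removal of the shift between groups, and leaving out 1 value.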

Additional observations from a re-analysis of the deposited data

How the results depend on the processing

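The 10 GTPase genes were recomputed under 12 alternatives, namely 1 or 0.01 FPKM as the pseudocount, a minimum mean of 1 FPKM or no minimum, eBayes without a trend, removal of the shift between groups (0.02 on the log2 scale), an adjusted p under 0.1, and leave-one-out fits. In the last, 1 value of each named gene was left out by its rank and 1 drawn at random for all other genes, since a column follows no mouse. The log2 fold change was above 0 in 118 of 120 cases, and turned for *Tgtp1* (-0.0066) and *Gbp6* (-0.049) without their highest knockout value, while without their lowest they stood at 1.25 and 0.72. The number of GTPase genes called higher was 0 in 7 of 7 other alternatives and from 0 to 1 in the leave-one-out fits, where *Irgm2* passed without its lowest knockout value. That choice of value favours the GTPase genes over those that lost a random value. The number called lower was 0 in all 12. The number with an unadjusted p under 0.05 was 3 with no filter and from 0 to 10 in the leave-one-out fits. It was 0 or 1 without a control value, where the remaining control is assumed to vary like the other group, and 10 without the lowest knockout value. The number with groups apart, which is also the number at the smallest exact p, was 10 without the lowest knockout value and 6 in every other alternative. In the genes that joined, the value left out was the only knockout value not above the controls, so the rise follows from that choice. The smallest exact p is itself larger where a value is left out. The median log2 fold change of the 10 genes was between 0.25 and 0.68 in the leave-one-out fits and between 0.40 and 0.47 in the others. Over all genes, 42 higher and 24 lower calls became 11 and 5 with no filter, 21 and 11 without a trend, and 68 and 41 at an adjusted p under 0.1, and ran from 6 to 63 and from 11 to 38 in the leave-one-out fits. No paired analysis was possible because the columns follow no single mouse and so carry no replicate number. The depth is unknown, and 2 control livers limit the precision of every difference given here.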
